A study of Mus musculus with 2 samples.

Results

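The MS4A genes encode small tetraspan membrane proteins of blood cells. Here 8 members, Ms4a3, Ms4a4a, Ms4a4b, Ms4a4c, Ms4a6b, Ms4a6c, Ms4a6d and Ms4a7, were chosen by gene name from the 32285 genes measured, and all 8 were found. They were followed from granulocyte precursors through monocytes to macrophages in myeloid cells of the mouse ankle synovium. Another 11 measured genes carry the Ms4a name and are treated only briefly.

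There were 2 single-cell libraries, 1 per group. The day 7 library came from bone marrow chimeras 7 days after a retro-orbital injection of 200 µL of clodronate-laden liposomes, particles that kill the phagocytes that ingest them, and the steady-state library from untreated chimeras. In both groups B6 hosts carrying the CD45.2 form of CD45 had received B6 marrow carrying CD45.1, and the ankle was shielded during irradiation, so host cells remained in the joint. The labels describe the sorted cells as live and positive for CD45 and CD11b, without surface CD177, Ly6C, Ly6G, SiglecF, CD64 or class II MHC. The sources used here do not give the age or sex of the mice or how many were pooled. With 1 library per group nothing can be set against a spread between animals, so no p-value is given, and every interval below is a 95% interval for counting error alone.

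After filtering, the day 7 library held 1200 cells with 10824984 UMIs (unique molecular identifiers, a count of captured RNA molecules) and a median of 8309 per cell. The steady-state library held 1630 cells with 17060676 UMIs and a median of 9558.5. The libraries shared 0 cell barcodes. None of the 92 antibodies was directed against an MS4A protein, so all values are RNA.

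Cells were placed in gates by marker genes, none of them an MS4A gene. The day 7 library held 75 cells in a progenitor gate, set on the granule enzyme genes Mpo, Elane, Prtn3 and Ctsg, and the steady-state library held 2. A neutrophil gate held 79 cells at day 7 and 5 at steady state. The classical monocyte gate held 677 cells (56.4%) at day 7 and 268 (16.4%) at steady state, and the Ly6C-low monocyte gate 95 and 124. The cDC2 gate (conventional dendritic cells of type 2) held 29 and 102. The macrophage gate held 147 cells (12.2%) at day 7 and 829 (50.9%) at steady state. The progenitor-gated cells also carried abundant RNA of the neutrophil marker list, a median of 2462 marker UMIs per 10000, so they are read as granulocyte precursors by their genes. The cells did not match the sort label throughout. The median Ly6C antibody count per cell was 51 at day 7 and 44 at steady state in the classical gate, against 3 and 1 in the macrophage gate. A gate is a range on a marker score. For the Ly6C-low gate, 86 day 7 cells and 65 steady-state cells lay outside it but within 20% of its cutoff.

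MS4A proteins sit in the plasma membrane and in endosomes, where they associate with immune receptors and signalling partners. Ms4a3 is a textbook gene of granulocyte and monocyte progenitors, Ms4a4b was described in T cells, MS4A4A is a macrophage surface protein in humans, and Ms4a7 is widely used as a marker of tissue macrophages. Ms4a4c, Ms4a6b, Ms4a6c and Ms4a6d are paralogues of the same gene cluster.

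All 8 members lie on chromosome 19 within 319.813 kb of the GRCm38.p6 assembly, per RefSeq. Among these 8, Ms4a7 lies at the low-coordinate end (chr19:11321039-11336146, minus strand). Ms4a4a (chr19:11375488-11392915), Ms4a4c (chr19:11404717-11427246), Ms4a4b (chr19:11443558-11463549), Ms4a6c (chr19:11469353-11487182) and Ms4a6b (chr19:11518559-11530403) follow on the plus strand. Ms4a6d (chr19:11586606-11604804) and Ms4a3 (chr19:11629499-11640851, minus strand) close the row. Ms4a3, the member of precursors, and Ms4a7, the member of macrophages, are thus the outermost 2 of the 8 chosen members. Ms4a7 does not end the whole cluster. By position it is number 10 of the 19 measured Ms4a genes, and Ms4a8a is among those beyond it.

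Upstream sequences were at hand from RefSeq for 7 of the 8 members, Ms4a6d being the exception. The 200 bases before an annotated start are printed for the 6 members whose window holds GGAAGT, the core letters of an Ets factor site such as PU.1 binds, or its reverse complement ACTTCC, both in capitals. The windows are chr19:11640852-11641051 (minus strand) for Ms4a3, chr19:11443358-11443557 (plus) for Ms4a4b, chr19:11407461-11407660 (plus) for Ms4a4c, chr19:11518359-11518558 (plus) for Ms4a6b, chr19:11469168-11469367 (plus) for Ms4a6c and chr19:11336147-11336346 (minus) for Ms4a7. The starts used for Ms4a4c and Ms4a6c lie inside the gene's annotated span.
Ms4a3: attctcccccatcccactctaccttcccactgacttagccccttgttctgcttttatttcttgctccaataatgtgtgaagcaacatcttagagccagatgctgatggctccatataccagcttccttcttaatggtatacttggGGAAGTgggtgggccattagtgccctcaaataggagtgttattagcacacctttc
Ms4a4b: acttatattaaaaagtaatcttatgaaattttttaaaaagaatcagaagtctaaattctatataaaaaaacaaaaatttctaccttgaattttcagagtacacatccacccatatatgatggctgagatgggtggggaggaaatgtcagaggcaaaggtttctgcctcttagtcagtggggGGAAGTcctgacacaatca
Ms4a4c: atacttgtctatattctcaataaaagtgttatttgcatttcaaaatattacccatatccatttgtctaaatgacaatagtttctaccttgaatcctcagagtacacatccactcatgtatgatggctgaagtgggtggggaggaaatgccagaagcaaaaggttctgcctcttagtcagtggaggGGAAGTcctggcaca
Ms4a6b: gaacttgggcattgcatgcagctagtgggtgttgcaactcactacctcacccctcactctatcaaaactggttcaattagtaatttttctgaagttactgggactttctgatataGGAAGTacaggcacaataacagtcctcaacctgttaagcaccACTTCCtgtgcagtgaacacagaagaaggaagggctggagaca
Ms4a6c: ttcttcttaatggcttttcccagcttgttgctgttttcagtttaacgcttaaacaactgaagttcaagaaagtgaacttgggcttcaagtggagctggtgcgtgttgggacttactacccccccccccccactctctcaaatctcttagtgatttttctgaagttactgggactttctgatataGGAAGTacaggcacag
Ms4a7: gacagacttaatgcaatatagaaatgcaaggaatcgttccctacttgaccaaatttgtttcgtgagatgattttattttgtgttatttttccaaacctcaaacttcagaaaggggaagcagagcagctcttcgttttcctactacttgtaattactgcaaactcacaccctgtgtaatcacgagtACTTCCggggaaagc

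GGAAGT on either strand was found in 6 of the 7 members with a window, against 16.7% of 32851 windows of this length from all genes. It began 55 bases before the start in Ms4a3, 19 in Ms4a4b, 15 in Ms4a4c, 85 and 43 in Ms4a6b, 16 in Ms4a6c and 15 in Ms4a7. The Ms4a4a window did not hold these letters, nor did a second annotated start of Ms4a7. The letters GAAANNGAA on either strand, those of an interferon regulatory factor repeat, were in the Ms4a6c window and both Ms4a7 windows and in 5.57% of all windows. Of 3 further motifs searched on both strands, TTGCNNAA (C/EBP) and TTCNNNGAA (STAT) were in no member window and in 7.47% and 5.49% of all windows, and TGANTCA (AP-1; 5.48%) was only in that of the second Ms4a7 start. These letters were searched after the sequences had been seen, and a match is not a measured binding site. Within the printed windows, 117 of 133 aligned bases (88.0%) were identical between Ms4a4b and Ms4a4c, and 106 of 132 (80.3%) between Ms4a6b and Ms4a6c. In each of these pairs a GGAAGT lies within the like stretch, so the 6 members are not 6 separate finds. The windows lie before the annotated starts, and the likeness of the transcripts themselves was not measured. The sources do not say how reads that match several paralogues were counted, so the division of UMIs between paralogues is uncertain.

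Ms4a3 was almost confined to the granulocyte gates. Levels are given as CPM, a gene's UMIs per 1000000 UMIs summed over the cells of a gate. At day 7 Ms4a3 had 792 CPM (744 to 843; 1008 UMIs) in the progenitor gate and 167 CPM (139 to 198) in the neutrophil gate. It had 1 UMI in 677 classical monocytes and 1 in 147 macrophages. The progenitor and neutrophil gates together supplied 1139 Ms4a3 UMIs, or 99.7% of those in the day 7 library. In the steady-state library all 41 Ms4a3 UMIs came from the 2 progenitor-gated and 5 neutrophil-gated cells. The classical and macrophage gates held 0, which allows up to 1.45 and 0.414 CPM.

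Over the progenitor and neutrophil gates together, Ms4a3 was highest in the cells with the most granule enzyme RNA. From under 5 to over 300 UMIs of the 4 granule enzyme genes per 10000, in 5 steps, Ms4a3 had 113, 373, 351, 987 and 1375 CPM at day 7. The first 2 steps lie under the progenitor cutoff of 20 and held only neutrophil-gated cells. The later steps held only progenitor-gated cells, so part of the rise repeats the difference between the gates. The level did not rise at every step, and the second and last steps held 11 and 18 cells. Ms4a6c was at 193 CPM in the third of these steps and at 30.8 and 4.1 CPM in the last 2. At an equal depth of 3000 UMIs per cell, which 55 of the 75 progenitor-gated cells reached, 45 cells held Ms4a3, 6 held Ms4a6c and 1 held both. The precursor member and the monocyte member were therefore largely seen in different cells of the gate.

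**Figure D1:**
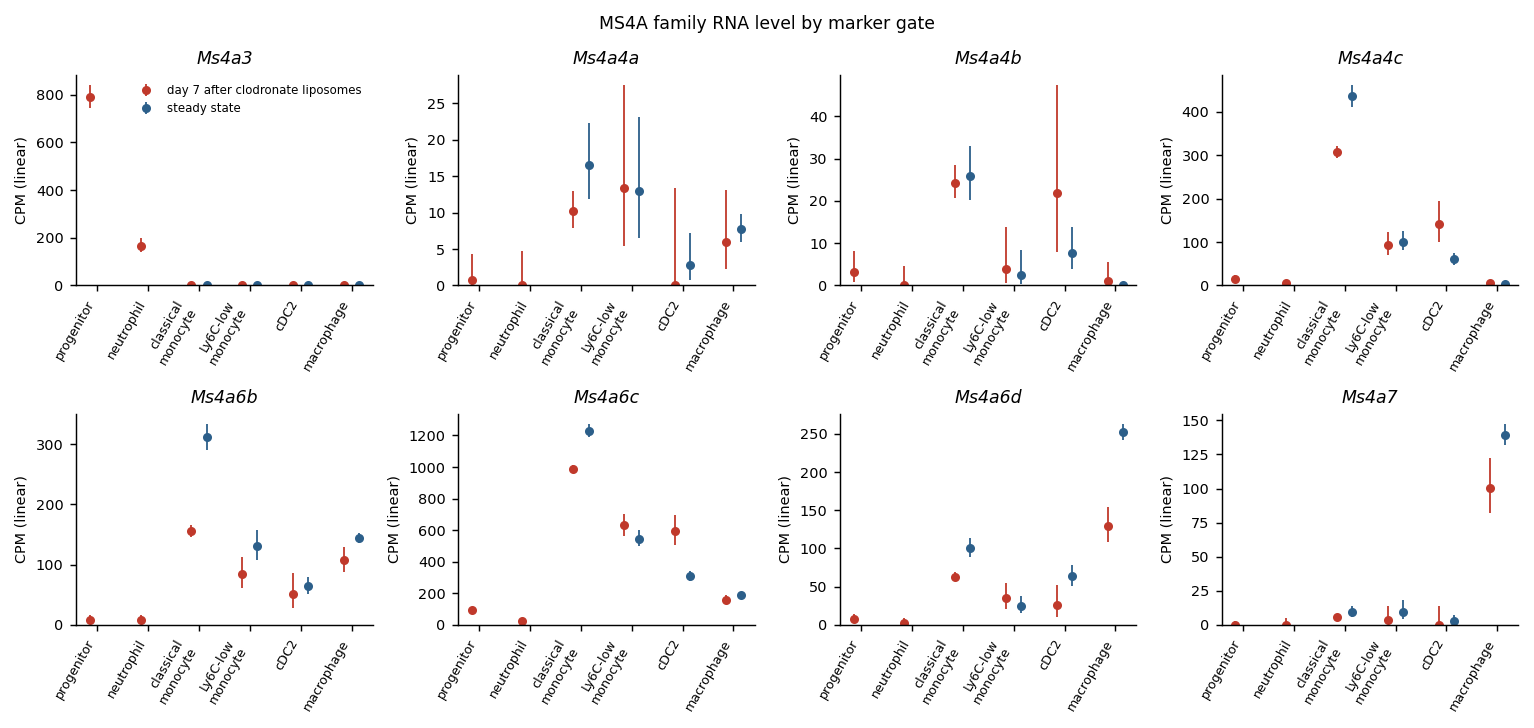
RNA level of each MS4A member (CPM, linear axis from 0) in 6 marker gates, day 7 in red to the left of steady state in blue, for gates with at least 20 cells. Points are summed UMIs over the gate and bars are 95% Poisson intervals; Ms4a3 stands in the progenitor gate (792 CPM), Ms4a4c and Ms4a6c peak in classical monocytes, and Ms4a6d and Ms4a7 in macrophages.

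All 6 members that could be compared passed a 2-fold threshold between the progenitor and classical monocyte gates at day 7. A gene entered a comparison if it had at least 20 CPM in one of the groups, and 37.3% of the genes so compared passed the same threshold in this pair. Ms4a3 was higher in the progenitor gate, by a log2 ratio of 12.28 (9.80 to 17.59), the wide interval resting on the single UMI in classical cells. Ms4a6c had 94.3 CPM in the progenitor gate, against 989 CPM in the classical gate, a log2 ratio of -3.39 (-3.66 to -3.13). Ms4a4c had 15.7 CPM in the progenitor gate, against 307 CPM in the classical gate, a log2 ratio of -4.29. Ms4a6b, Ms4a6d and Ms4a4b were lower in the progenitor gate too, by -4.16, -3.15 and -2.95. Ms4a7 had 0 UMIs in the progenitor gate, which allows up to 2.36 CPM.

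In classical monocytes Ms4a6c was the most abundant member in both libraries. At day 7 the classical gate had 989 CPM of Ms4a6c (964 to 1014), and at steady state 1230.3 CPM (1188 to 1274). At 3000 UMIs per cell, 90.8% of day 7 and 93.1% of steady-state classical monocytes held at least 1 Ms4a6c UMI. Without thinning the shares were 93.9% and 96.3%. Fibroblast-gated cells of the steady-state library, which should lack the gene, held 0 Ms4a6c UMIs in 64 cells at a median depth of 10290.5 UMIs. This allows up to 5.84 CPM. Free RNA in the droplets thus left no detectable Ms4a6c there.

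Ms4a4c, which belongs to the genes induced by interferon, followed with 307 CPM (293 to 321) at day 7 and 437 CPM (411 to 463) at steady state. Ms4a6b had 155 CPM (146 to 165) at day 7 and 312 CPM (290 to 334) at steady state. Ms4a6d had 62.8 and 100.8 CPM and Ms4a4b 24.3 and 26.0 CPM in day 7 and steady-state cells. Ms4a4a was low throughout, with 10.2, 13.4 and 6.0 CPM in the classical, Ly6C-low and macrophage gates at day 7 and 16.5, 12.9 and 7.7 CPM at steady state. The intervals of neighbours in this order overlapped in both libraries. Ms4a7 was near the bottom, with 5.7 CPM at day 7 and 9.1 CPM at steady state, close to the 3.2 CPM of the steady-state fibroblast gate. At equal depth, 300 of the 314 day 7 classical monocytes with Ms4a4c also held Ms4a6c (95.5%, against 90.8% of all), and 137 of 142 at steady state (96.5%, against 93.1% of all). Ms4a6b was seen in 131 of the same 314 day 7 cells (41.7%, against 36.1% of all) and Ms4a6d in 63 (20.1%, against 15.9%).

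From classical to Ly6C-low monocytes, the patrolling type, every compared member was lower. At day 7 Ms4a4c had 93.7 CPM in the Ly6C-low gate, against 307 CPM in the classical gate, a log2 ratio of -1.71 (-2.15 to -1.30). At steady state it had 101.0 CPM in the Ly6C-low gate, against 437 CPM in the classical gate, a log2 ratio of -2.11 (-2.45 to -1.79). Ms4a4b was lower by -2.67 at day 7 and -3.47 at steady state, but rests on 2 UMIs in each Ly6C-low gate. Ms4a6c was still the most abundant member in Ly6C-low cells, with 631 CPM at day 7 and 546 CPM at steady state. Its log2 ratio to classical cells was -0.65 at day 7, inside the threshold, and -1.17 at steady state, past it.

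The threshold was passed by 2 of 5 members at day 7, where 16.5% of all compared genes passed, and by 5 of 5 at steady state, where 13.8% did. The steady-state 5 included Ms4a6b (-1.26) and Ms4a6d (-2.03), whose day 7 ratios were -0.88 and -0.87. When clusters replaced the gates, the day 7 ratio of Ms4a4c was -0.62 and the steady-state ratios of Ms4a6b and Ms4a6c were -0.71 and -0.73, short of the threshold. The median log2 ratio of all compared genes was -0.03 at day 7 and 0.05 at steady state.

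The decline was gradual along the marker share. Monocytes were ordered by the part of their monocyte marker UMIs that came from Ly6C-low markers, in 6 steps from under 10% to over 80%. Ms4a4c had 341, 335, 231, 103, 119 and 56.3 CPM at day 7 and 529, 490.4, 325, 207, 111 and 51.4 CPM at steady state. Ms4a6c had 1062, 1002, 874, 739, 700.2 and 387 CPM at day 7, and 1394, 1297, 1048, 863, 520.4 and 440.0 CPM at steady state. Each step held at least 26 day 7 cells or 34 steady-state cells. Both members were lowest at the Ly6C-low end in both libraries.

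**Figure D2:**
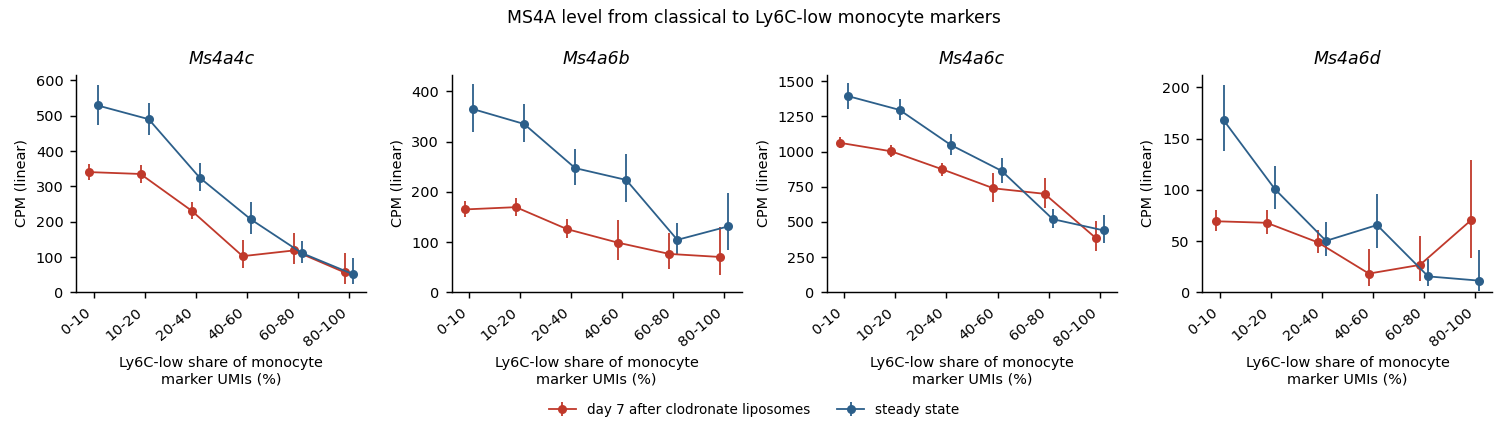
RNA level (CPM, linear axes from 0) of 4 members in cells of both monocyte gates, binned by the percentage of monocyte marker UMIs that come from Ly6C-low markers, day 7 in red and steady state in blue. Bars are 95% Poisson intervals; Ms4a4c ends at 56.3 CPM at day 7 and 51.4 CPM at steady state in the last bin.

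In macrophages Ms4a7 and Ms4a6d were higher than in classical monocytes, while Ms4a4c and Ms4a4b were nearly absent and Ms4a6c and Ms4a6b were still present. Over the 4 monocyte, cDC2 and macrophage gates filled in both libraries, 6 of the 8 members were highest in the same gate in both: Ms4a6d and Ms4a7 in macrophages, and Ms4a4b, Ms4a4c, Ms4a6b and Ms4a6c in classical monocytes. For Ms4a4b at day 7 this order is not resolved, since the cDC2 gate had 21.8 CPM (8.0 to 47.5; 6 UMIs), against 24.3 CPM in the classical gate. Ms4a7 had 100.5 CPM (81.7 to 122) in the macrophage gate at day 7, against 5.7 CPM in the classical gate, a log2 ratio of 4.13 (3.57 to 4.72). At steady state it had 139.5 CPM (132 to 147) in macrophages, against 9.1 CPM in classical monocytes, a log2 ratio of 3.95 (3.35 to 4.61). Ms4a7 was thus the member most raised in macrophages in both libraries.

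Ms4a6d, reported in mouse macrophages as a partner of Vsig4, was the other member on the macrophage side. It had 129.6 CPM (108 to 154) in macrophages at day 7, against 62.8 CPM in classical monocytes, a log2 ratio of 1.04. At steady state it had 253 CPM (242 to 263) in macrophages, against 100.8 CPM in classical monocytes, a log2 ratio of 1.32 (1.14 to 1.52). The day 7 ratio fell short of the threshold with TMM scaling (0.73), with median-of-ratios scaling (0.72), with clusters (0.95) and in donor cells alone (0.52), and kept its direction in each. The steady-state ratio fell short in donor cells alone (0.68).

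Ms4a4c was almost absent from macrophages. It had 6.0 CPM in the macrophage gate at day 7, against 307 CPM in the classical gate, and 3.6 CPM in the macrophage gate at steady state, against 437 CPM, log2 ratios of -5.67 (-7.12 to -4.55) and -6.93 (-7.48 to -6.42). Ms4a4b had 1 UMI in the macrophage gate of each library. Ms4a6c was lower in macrophages but present, with 159.7 and 191 CPM at day 7 and steady state and log2 ratios of -2.63 and -2.69. At that level it still had the highest CPM of the members in day 7 macrophages and the second highest, after Ms4a6d, at steady state; at day 7 its interval overlaps that of Ms4a6d. Ms4a6b differed least, with log2 ratios of -0.53 (-0.83 to -0.24) at day 7 and -1.12 (-1.25 to -0.99) at steady state.

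Between macrophages and classical monocytes 5 of 6 members passed the threshold at day 7 and 6 of 6 at steady state, 2 of them upwards in each library. These 2 gates differ widely, and 33.8% of all compared genes passed at day 7 and 33.3% at steady state. The median log2 ratio of all compared genes was 0.19 and 0.25. Between macrophages and Ly6C-low monocytes 4 of 5 members passed in each library, against 37.1% of genes at day 7 and 35.2% at steady state. Ms4a7 was higher in macrophages by 4.71 and 3.89, Ms4a6d by 1.91 and 3.36, and Ms4a6c and Ms4a4c were lower by -1.98 and -1.52 and by -3.96 and -4.81, at day 7 and steady state. In donor cells alone, with 9 macrophages that held 5 Ms4a4c UMIs, the day 7 ratio of Ms4a4c was -0.40. Ms4a6b was the exception, at 0.35 (-0.17 to 0.89) and 0.14 (-0.14 to 0.43).

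**Figure D3:**
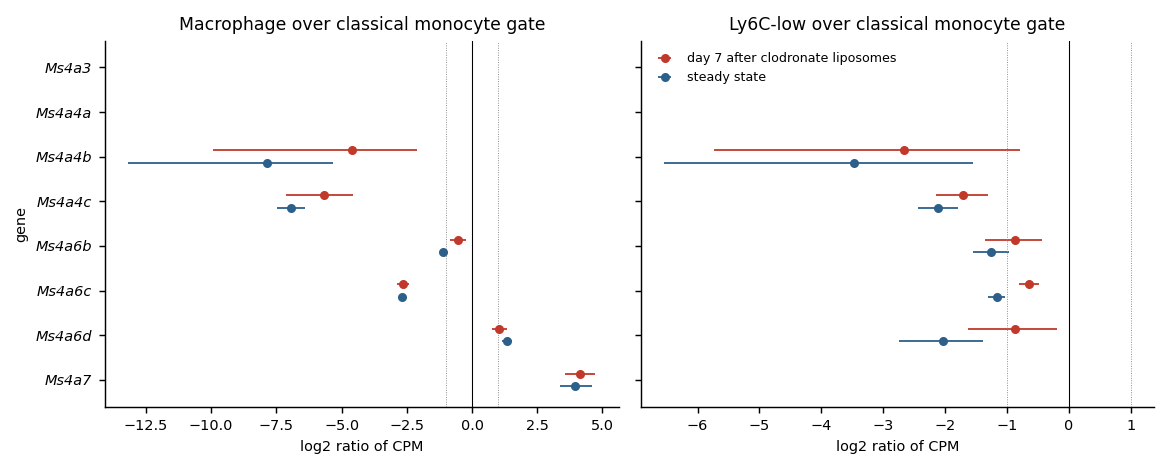
log2 ratio of CPM for each member, macrophage over classical monocyte gate on the left and Ly6C-low over classical monocyte gate on the right, day 7 in red above steady state in blue. Bars are 95% counting intervals, dotted lines mark the 2-fold threshold, and members below 20 CPM in both gates have no point; Ms4a7 stands at 4.13 and 3.95 and Ms4a4c at -5.67 and -6.93 on the left.

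Along the macrophage marker score the members crossed over. Classical, Ly6C-low, macrophage and ungated cells were ordered by macrophage marker UMIs per 10000, in 6 steps with bounds at 5, 20, 50, 100 and 200. At steady state Ms4a4c had 196, 323, 87.4, 32.5, 2.5 and 3.9 CPM and Ms4a7 had 4.4, 10.8, 10.0, 21.7, 60.5 and 162 CPM. Ms4a4c was thus at its lowest in the last 2 steps, where Ms4a7 was highest. Ms4a6d had 35.4, 93.1, 62.4, 83.5, 170.3 and 276 CPM. Ms4a6c had 702, 998, 185, 93.3, 93.1 and 219 CPM, so it was lowest at intermediate scores and higher again in the cells richest in macrophage RNA. Steps under 100 hold no macrophage-gated cells. The 234 ungated steady-state cells had a median macrophage score of 28.1 and 130 CPM of Ms4a6c. Their part in the intermediate steps was not tested.

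The day 7 library had few cells between the extremes, with 14 cells in the third step, 21 in the fourth and 48 in the fifth. There Ms4a4c had 268, 326, 24.3, 11.4, 15.8 and 1.5 CPM and Ms4a7 had 4.5, 9.4, 12.2, 68.2, 28.4 and 134 CPM. The Ms4a7 values of the middle steps rest on 1, 12 and 9 UMIs. Low and high ends were ordered as at steady state. At 3000 UMIs per cell, 0 of 113 day 7 macrophages and 8 of 759 at steady state held Ms4a4c. Ms4a7 was held by 23 of 113 and 177 of 759. Among 113 cells, 3 would be a share of 2.65%.

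**Figure D4:**
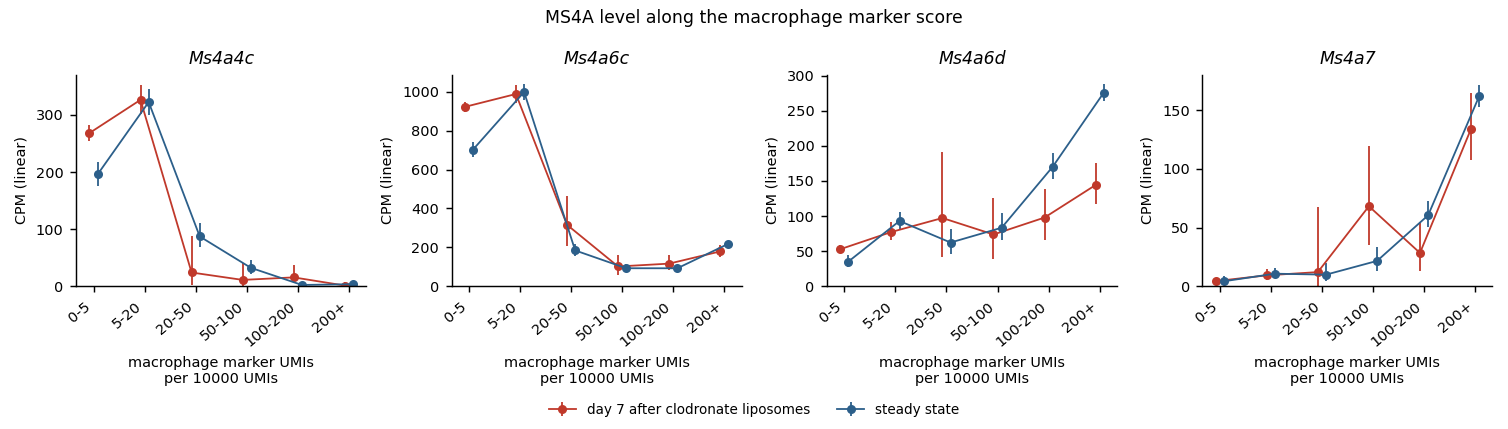
RNA level (CPM, linear axes from 0) of 4 members in classical, Ly6C-low, macrophage and ungated cells binned by macrophage marker UMIs per 10000 UMIs, day 7 in red and steady state in blue. Bars are 95% Poisson intervals; in the last bin Ms4a7 reaches 134 CPM at day 7 and 162 CPM at steady state, where Ms4a4c is at 1.5 and 3.9 CPM.

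Within macrophages, host and donor cells differed in 2 members. Antibody counts for the 2 CD45 forms called 683 steady-state macrophages host cells and 69 donor cells, with 77 unassigned. Ms4a7 had 136 CPM in host macrophages, against 56.1 CPM in donor macrophages, a log2 ratio of 1.27 (0.81 to 1.78). The whole gate had 139.5 CPM, more than either class, so the 77 unassigned cells together lay above both. The host and donor ratio leaves them out. Ms4a4c had 1.6 CPM in host macrophages, against 20.7 CPM in donor macrophages, a log2 ratio of -3.72 (-4.97 to -2.50). So 2 of 5 members passed the threshold, where 7.97% of all compared genes did. The median macrophage score was 279 in host and 203 in donor cells, and its part in the difference was not tested.

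Both calls depend on the cells taken. With doublet calls kept, which moved the donor cells to 71, no member passed: the Ms4a7 ratio was 0.97, and Ms4a4c, at -3.66, no longer reached 20 CPM. Stricter gates and equal weight per cell gave 0.84 and 0.75 for Ms4a7. At day 7 only 9 macrophages were donor cells. They had 131 CPM of Ms4a7 from 12 UMIs, against 90.5 CPM in 97 host cells, a log2 ratio of -0.53 for host over donor (-1.43 to 0.49). Ms4a4c had 1.3 CPM in these host cells, against 54.6 CPM in the donor cells, a log2 ratio of -5.40 (-10.96 to -2.24). The direction was that of steady state, but the ratio rests on 1 host UMI and 5 donor UMIs. All 6 Ms4a4c UMIs of the day 7 macrophage gate lay in 2 cells. With so few donor cells, 28.9% of all compared genes differed by 2-fold or more.

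Macrophages also differed by their own subset markers. With rising lining-macrophage score (Vsig4, Trem2 and others, bounds at 50 and 100 UMIs per 10000), Ms4a7 had 195, 89.5 and 12.0 CPM at day 7, where the last step holds 34 cells and 3 UMIs. The same steps had 155, 132 and 138 CPM at steady state. Ms4a6d had 156, 109 and 136 CPM at day 7 and 216, 250.4 and 281 CPM at steady state. With rising interstitial score, bounds at 20 and 50, Ms4a7 had 188, 106 and 59.3 CPM at day 7 and 142, 162 and 116 CPM at steady state. Ms4a7 was thus lower with either score in the day 7 library, and the difference between libraries was not tested.

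For the whole cell pools, day 7 over steady state, 5 of 7 members passed the threshold, against 17.1% of all compared genes. Ms4a3 had 105 CPM at day 7 and 2.4 CPM at steady state, a log2 ratio of 5.46 (5.01 to 5.94). Ms4a4c had 192 and 79.5 CPM, a ratio of 1.27, and Ms4a4b 21.3 and 5.2 CPM, a ratio of 2.03. Ms4a7 had 14.2 CPM at day 7 and 76.8 CPM at steady state, a ratio of -2.43, and Ms4a6d 54.5 and 162 CPM, a ratio of -1.57. Ms4a6c (0.89) and Ms4a6b (-0.31) stayed inside the threshold. Fewer cells of a type and less RNA per cell cannot be told apart in such sums.

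When each gate was given the same weight in both libraries, no member passed. Ms4a4c turned to -0.36, and Ms4a7 moved to -0.41, Ms4a6d to -0.80, Ms4a4b to 0.39 and Ms4a3 to 0.51. The pools also drew members from other cells. Of the Ms4a6b UMIs, 81.4% came from classical monocytes at day 7 and 33.7% at steady state, where macrophages gave 54.6%. Macrophages gave 21.9% of the Ms4a6d UMIs at day 7 and 81.5% at steady state. Of the Ms4a4b UMIs at day 7, 26.0% came from 7 cells of a T and NK cell gate, which had 1146 CPM.

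Within a gate the libraries were closer. In classical monocytes only Ms4a6b passed the threshold, 1 of 5 members, where 4.13% of all compared genes did. It had 155 CPM at day 7 and 312 CPM at steady state, a log2 ratio of -1.01 (-1.14 to -0.87), close to the threshold, and -0.81 with clusters or -0.99 in donor cells alone. Ms4a6d (-0.68), Ms4a4c (-0.51), Ms4a6c (-0.32) and Ms4a4b (-0.09) were lower at day 7 too, against a median of 0.15 over all compared genes. In Ly6C-low monocytes 0 of 4 members passed, where 11.7% of genes did, and the ratios ran from -0.63 for Ms4a6b to 0.48 for Ms4a6d.

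In macrophages 0 of 4 members passed, where 2.36% of genes did. Ms4a6d had 129.6 CPM at day 7 and 253 CPM at steady state, a log2 ratio of -0.96 (-1.23 to -0.71), which passed with TMM scaling (-1.12) and median-of-ratios scaling (-1.12). Ms4a7 (-0.47), Ms4a6b (-0.42) and Ms4a6c (-0.26) were lower at day 7, against a median of 0.12 over all genes. In the 9 day 7 donor macrophages Ms4a7 was instead higher than in the 69 steady-state donor macrophages, by 1.22.

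Ms4a4c, Ms4a6b, Ms4a6c and Ms4a6d were all higher in the classical monocytes with the most interferon-induced RNA than in those with the least. Cells were ordered by the summed UMIs of Isg15, Ifit1, Ifit2, Ifit3, Rsad2, Oasl1, Irf7 and Cxcl10 per 10000, a list picked after other results of these data were known, in 5 steps with bounds at 2, 5, 10 and 20. Ms4a4c had 248, 386, 474, 642 and 797 CPM at day 7 and 313, 401, 559.7, 689 and 1102 CPM at steady state. Ms4a6b had 121, 226, 236, 334 and 288 CPM at day 7 and 210.4, 336, 354, 630.1 and 718 CPM at steady state. The last step held 13 day 7 cells and 15 steady-state cells, and the fourth 21 and 13.

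The cells with the lowest interferon score made up 492 of the 677 day 7 classical monocytes and 147 of the 268 at steady state. Within that step Ms4a6b still had 121 CPM at day 7 and 210.4 CPM at steady state. Ms4a6c, with 921 CPM in the first step and 1274 CPM in the last at day 7, and 1092 and 2112 CPM at steady state, spanned a smaller fold range than Ms4a4c. Ms4a6d had 53.8 and 75.9 CPM in the first and last step at day 7, and 71.1 and 293 CPM at steady state. Its fold range was thus smaller than that of Ms4a4c at day 7 and larger at steady state. The last steps hold few cells, and whether these fold ranges differ was not tested.

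**Figure D5:**
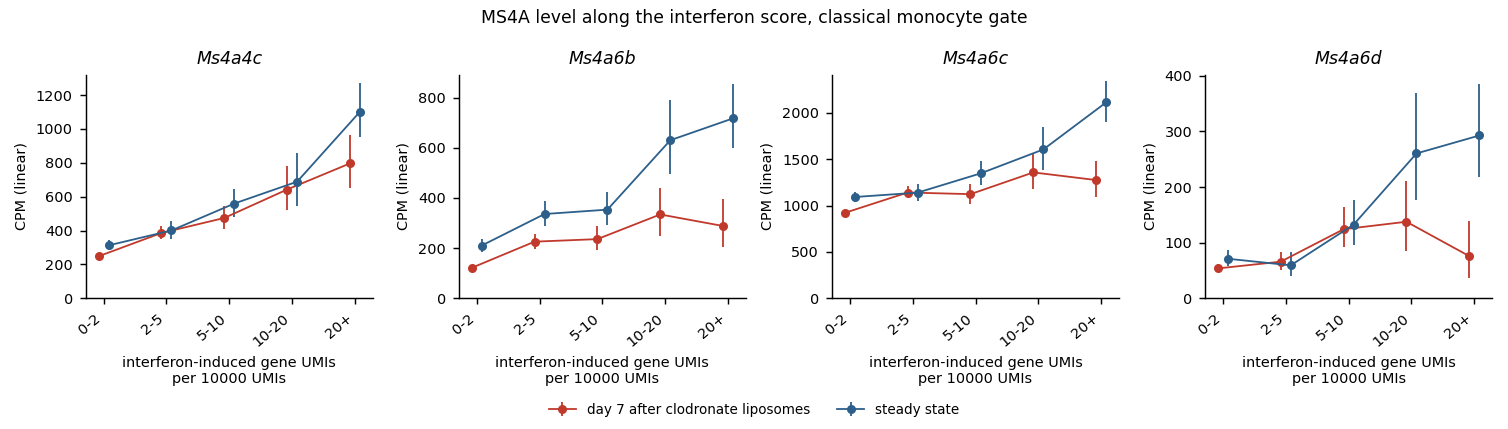
RNA level (CPM, linear axes from 0) of 4 members in classical monocytes binned by interferon-induced gene UMIs per 10000 UMIs, day 7 in red and steady state in blue. Bars are 95% Poisson intervals; from the first to the last bin Ms4a4c spans 248 to 797 CPM at day 7 and 313 to 1102 CPM at steady state.

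Across 11 sums, each a gate of 1 library with at least 20 cells, pairs of members ranged from similar to opposed profiles. On log2(CPM + 10), Pearson's r was 0.89 between Ms4a4b and Ms4a4c, 0.87 between Ms4a4c and Ms4a6c, 0.85 between Ms4a6b and Ms4a6c, 0.83 both between Ms4a6b and Ms4a6d and between Ms4a4a and Ms4a6b, 0.79 between Ms4a6d and Ms4a7, and 0.55 between Ms4a6c and Ms4a6d. The highest r of Ms4a6d with another member was that with Ms4a6b. Pearson's r was -0.34 between Ms4a4c and Ms4a7 and -0.63 between Ms4a3 and Ms4a6b. The sums share libraries and range in cell number, and these values are descriptions. The genes named next are the top 3 of 5207 for each member over only 11 sums, a choice that itself favours high r. The profiles most like Ms4a3 were those of Prom1 (r = 0.996), Nkg7 and Gfi1, a transcriptional repressor needed for neutrophil development. The r values of Ms4a3 rest on the day 7 progenitor and neutrophil sums (792 and 167 CPM), since it had at most 1.0 CPM elsewhere. Ms4a4c was most like Sys1 (0.979), Scand1 and the interferon-inducible Ifi209, Ms4a6c like Nrros (0.976), Rilpl2 and Trim25, and Ms4a6b like the chemokine gene Ccl3 (0.976), Rnf115 and Cmpk1. Ms4a7 was most like Ltc4s (0.984), which makes leukotriene C4, Cbr2 and Gpr34, and Ms4a6d like Rgs10 (0.958), Cd40 and Ntpcr. Ms4a4a was most like Smpdl3a (0.952), Ap1s2 and Parp14, and Ms4a4b like Itga1 (0.939), Ogfr and Lilra6. Ms4a4a had at most 16.5 CPM in any of these sums, so its r values rest on low counts.

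Of the 11 other Ms4a genes only Ms4a8a reached 20 CPM in the gate comparisons of monocytes, macrophages and precursors. It had 57.6 CPM at day 7 and 90.2 CPM at steady state in classical monocytes, against which it was lower in macrophages by log2 ratios of -2.14 and -2.66 and in Ly6C-low monocytes by -2.10 and -2.36. Ms4a2, the beta chain of the IgE receptor, had 752 CPM in the 11 cells of the day 7 basophil gate. Of 7 genes listed as known protein partners, 6 were compared between day 7 macrophages and classical monocytes. Vsig4 and Trem2 were higher, by 12.66 (10.18 to 17.97, with 1 UMI in the classical gate) and 2.26, both being macrophage markers of the gate, and Vsig4 at steady state by 6.62. Trem2 had 815 CPM in steady-state macrophages, against 109 CPM in classical monocytes. Cdkn3 and Tyrobp were lower at day 7 (-3.59 and -1.82) and at steady state (-3.88 and -1.61). Nlrp3 had 46.2 CPM in day 7 macrophages, against 185 CPM in classical monocytes, and a log2 ratio of -2.81 at steady state. Cdkn3, the phosphatase that human MS4A3 binds, had 77.0 CPM in the day 7 progenitor gate, against 24.2 CPM in the classical gate, a log2 ratio of 1.67.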

How the data were processed

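RNA and 92 surface antibodies were measured together in single cells (10x Genomics 3′ chemistry) in 1 library per group. The deposited values are UMI counts per gene and cell barcode, which per the submitters' processing notes the authors made with Cell Ranger 6.1.2 on mm10; Seurat 4.4.0 is also named, without a role.

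Filters required 500 or more UMIs, 200 or more genes and a mitochondrial share no higher than 10%. They left 1210 of 1277 day 7 barcodes and 1637 of 1912 steady-state barcodes; 63 (4.93%) and 271 (14.2%) exceeded the mitochondrial limit. Scrublet (scanpy 1.11.5) called 10 (0.826%) and 7 (0.428%) of them doublets, which were removed. The steady-state share is low for such a caller.

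Gates were set on the UMIs of marker lists per 10000 UMIs: at least 30 for classical monocytes, 20 and no less than the classical score for Ly6C-low monocytes, 5 for cDC2 with a macrophage score under 50, 100 for macrophages, 300 for neutrophils, 20 for progenitors, 10 for T and NK cells, 5 for basophils and mast cells and 50 for fibroblasts, later gates taking precedence. The cutoffs were set after the marker distributions had been seen, and the members and lists were chosen with earlier results of these data known. Cells with at least 10 counts of CD45.1 and CD45.2 together were assigned by d, the log2 of (CD45.2 + 1) over (CD45.1 + 1): host at d of 2 or more, donor at -1 or less, and otherwise unassigned.

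UMIs were summed per gate and scaled to CPM, with exact Poisson intervals for levels and conditional exact intervals for ratios. A gene was compared at 20 CPM or more in one group and passed at 2-fold either way. A group at 0 was set to a floor of 3 counts. Shares at equal depth used cells thinned to 3000 UMIs. The ratio step was tested on simulated data. All members are named in every comparison, the other genes come from fixed lists, and the 3 most alike genes of each member were taken by correlation among genes with at least 50 CPM in one sum. Alternatives were other gates, clusters (Leiden), TMM (edgeR 4.0.16) and median-of-ratios scaling, equal weights, donor cells alone, other filters and kept doublets. Sequences were aligned with Biopython 1.88. Intervals cover counting error only.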

Additional observations from a re-analysis of the deposited data

Results flagged for a closer look

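The day 7 over steady state difference of 2 members ran in opposite directions in different gates, outside their counting intervals with totals as the scale; the difference between gates was not tested. Ms4a4c was higher at day 7 in the cDC2 gate, by a log2 ratio of 1.24 (0.65 to 1.80), with 142 CPM in 29 day 7 cells and 60.2 CPM in 102 steady-state cells. It was lower at day 7 in the classical monocyte gate, by -0.51.

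Ms4a6c was higher at day 7 in the cDC2 gate, by 0.95 (0.69 to 1.22), and in the Ly6C-low monocyte gate, by 0.21 (0.00 to 0.42). The lower end of this last interval is barely above 0, and TMM scaling shifts that comparison by -0.06, which takes it below 0. Ms4a6c was lower in the classical monocyte gate, by -0.32, and in the macrophage gate, by -0.26. The median classical monocyte score of the cDC2 gate was 28.9 marker UMIs per 10000 at day 7 and 7.22 at steady state, and its part in these differences was not tested.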

How the results depend on the processing

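Of 40 member ratios past the threshold, 358 values under the alternatives were obtained. Of these, 356 kept their direction and 336 stayed past the threshold. Dropping the CPM minimum changes no ratio, so the 40 values under that setting had to stay in both counts. The reversed values were Ms4a4c over all cells, -0.36 with equal gate shares, and Ms4a4b between macrophages and classical monocytes at day 7, 0.47 in donor cells alone, where the 9 macrophages held no Ms4a4b UMI and the value is a bound from the floor of 3 counts. Equal gate shares, which give each gate the same weight in both libraries, left 0 members past the threshold over all cells. The share of all genes was not counted there. Makeup within a gate can still differ, and at steady state the progenitor and neutrophil gates held only 2 and 5 cells. With clusters the counts were 0 in classical monocytes between libraries, 1 at day 7 and 3 at steady state for Ly6C-low over classical monocytes, and 4 for host over donor macrophages. Kept doublets gave 0 for host over donor macrophages. TMM and median-of-ratios scaling each gave 1 in macrophages between libraries; they moved the median of all genes by at most -0.32 (macrophages over classical monocytes at day 7). Without the CPM minimum more members were compared, and the counts between libraries were 2 in classical monocytes, 1 in Ly6C-low monocytes and 2 in macrophages, and 7 for macrophages over Ly6C-low monocytes at day 7. The added calls rest on very few UMIs and are not read as changes. Between libraries, Ms4a3 had 1 and 0 UMIs in classical monocytes and Ms4a4b 1 and 1 in macrophages. For macrophages over Ly6C-low monocytes, Ms4a3 had 1 and 0 UMIs, and its ratio of -2.51 comes from the floor of 3 counts. The share of all genes without the minimum was not counted. Donor cells alone gave 0 in classical monocytes and 2 in macrophages between libraries, and 3 for macrophages over classical monocytes at day 7. The cause was not tested where none is named. Of 56 levels under stricter gates 36 stayed inside their interval. No paired analysis was possible because each group has 1 library and the labels give no replicate numbers, and for the same reason no replicate could be left out.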
